A study of Homo sapiens and Mus musculus with 14 samples.

Results

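The genes of the cytosolic ribosomal proteins were examined in the accessible-chromatin peak lists of MDA-MB-436, an established human breast adenocarcinoma line. The members are all protein-coding genes whose symbol is RPL or RPS followed by a number, with an optional letter A, X or Y and an optional ending L1, together with RPLP0, RPLP1, RPLP2 and RPSA; RPS6 kinases, LOC genes and chromosome Y were left out. This gave 80 of 19974 protein-coding genes on chromosomes 1 to 22 and X. ATAC-seq, in which a transposase cuts open DNA, was recorded in cells of SMARCAL1 knockout clone 1 (3 libraries, batch 1), cells of SMARCAL1 knockout clone 2 (2 libraries, batch 2) and control cells (3 libraries, batch 1); no treatment is given in the labels. SMARCAL1 is an ATP-dependent enzyme that reanneals DNA strands at stalled forks. Each knockout group is a single clone, and the labels do not say how the control cells were derived. The replicates of each group had been merged into 1 peak list, so the groups have no replicate check here, no test between groups was possible, and clone 2 and batch 2 cannot be told apart. The 6 libraries of mouse B16F10 cells were not used here.

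A cytosolic ribosome has a small subunit, which reads the messenger RNA, and a large subunit, which joins the amino acids. Their proteins, named RPS and RPL, are made in matched amounts and their genes are among the most highly transcribed in dividing cells. Most of their transcripts begin at a C within a run of pyrimidines, the 5′ terminal oligopyrimidine tract, through which the mTOR pathway controls their translation. Mutations in several of these genes cause Diamond-Blackfan anaemia, a failure of red cell production.

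The start sequences of 9 members are shown to give examples of the pyrimidine tract at genes with and without a called peak. All 9 carry the run, which 43 of the 65 members with a listed start have at their first listed start. Each runs from 80 bases before the listed start to 20 bases from it, 5′ to 3′ on the strand of the gene, from RefSeq (GRCh38.p14, the hg38 coordinates); the capitals mark the unbroken run of C and T that begins at the start. They were picked after the peaks had been seen, to span the genes with a peak in every list, in control only and in no list. The first 4 had a peak in all 3 lists.
RPL34, chr4:108620496-108620595, plus strand: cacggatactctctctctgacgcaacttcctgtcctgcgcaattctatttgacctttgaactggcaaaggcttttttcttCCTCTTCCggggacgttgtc
RPS12, chr6:132814489-132814588, plus strand: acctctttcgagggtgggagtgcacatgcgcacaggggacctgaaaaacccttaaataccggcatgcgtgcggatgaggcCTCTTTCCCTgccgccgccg
RPS6, chr9:19380217-19380316, minus strand: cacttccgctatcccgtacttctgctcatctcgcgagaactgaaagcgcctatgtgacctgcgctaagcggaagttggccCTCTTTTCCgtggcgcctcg
RPLP0, chr12:120201092-120201191, minus strand: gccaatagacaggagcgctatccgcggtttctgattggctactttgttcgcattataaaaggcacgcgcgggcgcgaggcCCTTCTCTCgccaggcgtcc
RPLP2 and RPS16 had a peak in the control list only.
RPLP2, chr11:809887-809986, plus strand: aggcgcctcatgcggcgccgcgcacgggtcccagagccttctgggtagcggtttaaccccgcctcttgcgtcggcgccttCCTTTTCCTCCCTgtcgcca
RPS16, chr19:39435930-39436029, minus strand: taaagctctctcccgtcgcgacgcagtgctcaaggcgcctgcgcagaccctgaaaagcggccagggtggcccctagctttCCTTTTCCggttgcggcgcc
RPLP1, RPL24 and RPS18 had a peak in none of the 3 lists.
RPLP1, chr15:69452738-69452837, plus strand: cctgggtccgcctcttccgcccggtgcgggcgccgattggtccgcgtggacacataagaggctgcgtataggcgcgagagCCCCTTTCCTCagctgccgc
RPL24, chr3:101686699-101686798, minus strand: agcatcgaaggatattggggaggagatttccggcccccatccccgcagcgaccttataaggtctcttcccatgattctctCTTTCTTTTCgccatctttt
RPS18, chr6:33271995-33272094, plus strand: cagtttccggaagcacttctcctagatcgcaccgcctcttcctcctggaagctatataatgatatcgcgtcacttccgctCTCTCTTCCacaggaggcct
The pyrimidine run is 8 to 10 bases long in the 4 genes with a peak in all lists, 13 and 8 in RPLP2 and RPS16, and 9 to 11 in the 3 genes with none.

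A member was counted as having a gene-end peak when a deposited peak lay within 1000 bp of either annotated end of the gene, so peaks at 3′ ends are included. The clone 1 list held 39537 peaks, the clone 2 list 34572 and the control list 64806. The score of a peak was taken, from its values, to be the authors' −log10 p, as the lists have no header. Its median was 6.07 in clone 1, 11.004 in clone 2 and 6.26 in control, with no value below 5. Scores depend on depth and settings, so they are set side by side and not compared between lists. The percentile of a score within its own list is given for the medians and for some named genes. Clone 2 scores are higher as a whole, so a higher clone 2 score at a gene does not mean a stronger peak there. Read totals were not used here, so the depth behind each list is unknown and an absent peak means only that none was called. All intervals are exact 95% binomial intervals and cover counting error only. A gene-end peak of SMARCAL1 itself was in all 3 lists, which does not check the knockout. Of 6 epithelial and mesenchymal marker genes, EPCAM and VIM had a peak in all 3 lists, KRT8 and KRT18 in control only, and KRT5 and KRT14 in none. KRT8 and KRT18 overlap at their ends and have the same low control score of 5.76, so theirs may be 1 shared peak.

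Most ribosomal protein genes had an accessible gene end. Of the 80 members, 58 had a gene-end peak in clone 1 (72.5%, 61.4 to 81.9), 47 in clone 2 (58.8%, 47.2 to 69.6) and 70 in control (87.5%, 78.2 to 93.8). Over all protein-coding genes the shares were 50.4% in clone 1, 43.2% in clone 2 and 60.9% in control. A peak in all 3 lists was found at 43 members (53.8%), against 39.4% of all genes, and a peak in no list at 8 members (10%), against 36.4% of all genes. No test was made of these differences.

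**Figure D1:**
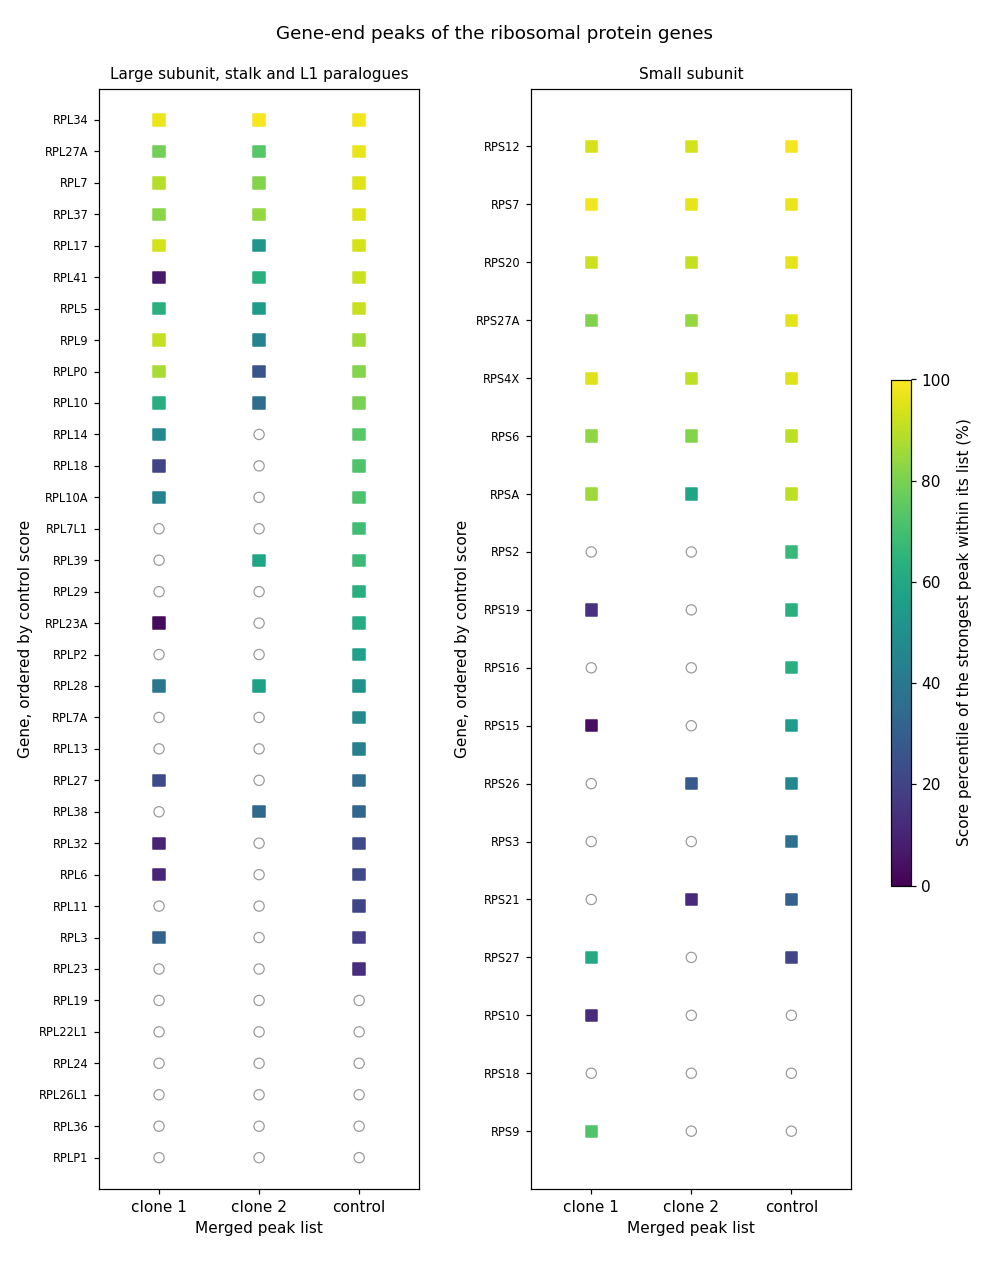
Gene-end peaks of the ribosomal protein genes named here in the clone 1, clone 2 and control lists (columns), with genes as rows ordered by control score; most genes with a peak in all lists are not drawn. Filled squares are coloured by the percentile of the strongest peak's score within its own list and open circles mark no gene-end peak; the open circles gather in the lower rows, where RPL19, RPL24 and RPLP1 are among the genes with one in every column.

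The peaks at these genes had lower median scores and widths than those of all genes in each list. The median score percentile of the members' strongest gene-end peak was 64.7 in clone 1, 55.1 in clone 2 and 71.5 in control. Over all genes with a gene-end peak the medians were 70.7, 59.1 and 78.1 in the same lists. The median peak width was 777 bp in clone 1, 233 bp in clone 2 and 826 bp in control at the members, and 910, 289 and 988 bp over all genes. The median widths were 800, 251 and 937 bp at mitochondrial ribosomal protein genes and 790, 236 and 818.5 bp at proteasome subunit genes. The median percentiles of these sets were 70.1, 59.8 and 76.3, and 70.5, 45.6 and 79.97. Narrower medians than over all genes were thus not particular to the members. Wider medians were found at ribosome biogenesis genes in clone 1 and control (1022.5 and 1156 bp) and translation and pyrimidine-tract genes in clone 1 (923 bp). These are medians side by side, with no test.

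The small-subunit gene RPS12 had the highest control score of the members, at a peak that covers its start (hg38, chromosome 6, 132813453 to 132814861). Its peak scored 11.1 in clone 1, 21.5 in clone 2 and 22.7 in control, the 93.5, 92.99 and 98.3 percentile of those lists. RPL34, a large-subunit gene (control peak on chromosome 4, 108619960 to 108621084), scored 13.8 in clone 1, 29.9 in clone 2 and 21.3 in control. RPS7, one of the anaemia genes (control peak on chromosome 2, 3574583 to 3576117), scored 14.7, 24.9 and 18.9 in the same lists. These 3 genes stood above the 90 percentile in all 3 lists, as did some other members, among them RPS20 and RPS4X.

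RPL27A and RPS20 completed the 5 highest control scores, at 18.7 and 18.1. RPL27A scored 7.87 in clone 1 and 14.0 in clone 2, and RPS20 10.5 in clone 1 and 20.2 in clone 2. The strongest RPL27A peak lay towards the 3′ end of the gene in clone 1 and control, centred 6146.5 and 6097 bp past its start, and at the start in clone 2, with a centre at -73 bp, so these 3 scores are not of 1 site. Weaker peaks at the start were also in the clone 1 and control lists. RPS20 encodes a protein of the small-subunit head that is ubiquitinated when ribosomes collide.

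The other end of the range included RPL23, RPL3, RPL11 and RPS27, with control scores of 5.11, 5.17, 5.24 and 5.26. RPL3, whose protein reaches towards the peptidyl transferase centre, scored 5.56 in clone 1 and had no clone 2 peak. RPS27 scored 6.55 in clone 1 and had no clone 2 peak. RPL11 and RPL23 had no peak in either clone. None of these 4 members with low control scores had a clone 2 peak.

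The widest control peak of a member was that of RPL7, at 2204 bp in clone 1, 1047 bp in clone 2 and 2359 bp in control. It lies in the end windows of both RPL7 and its neighbour RDH10. RPL37 followed, with widths of 1303 bp in clone 1, 297 bp in clone 2 and 1560 bp in control, and RPL9 with 997, 340 and 1550 bp. The narrowest control peaks were those of RPL14 (344 bp), RPS2 (346 bp) and RPL3 (382 bp). RPL7, RPL37 and RPL9 had a peak in all 3 lists, and RPL14, RPS2 and RPL3 had none in clone 2.

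Among the proteins with a known separate role, RPS6 is the target of the S6 kinases. Its peak scored 8.44 in clone 1, 15.8 in clone 2 and 13.2 in control. RPSA, which is also known as a laminin receptor, scored 8.79, 11.8 and 13.0. RPS27A, made as a fusion with ubiquitin, scored 8.17, 16.5 and 17.4. RPS4X, whose protein belongs to the small subunit, scored 11.8, 19.4 and 16.5, and RPL10, a late-joining protein of the large subunit, 6.66, 9.79 and 9.59. In every list the strongest peak of these 5 genes covered a listed start, except at RPS27A in clone 2, where the peak lay 267 bp from the gene end.

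RPL41, which encodes the smallest ribosomal protein, had no peak at its start in any list, and its gene-end peak lay at the 3′ end. It scored 5.12 in clone 1, 12.5 in clone 2 and 14.3 in control, and in each list it also lay in the end window of the neighbour ZC3H10. RPL5 and RPL11 bind the 5S ribosomal RNA, and when ribosome assembly fails both bind MDM2, the inhibitor of p53. RPL5 scored 6.71 in clone 1, 11.4 in clone 2 and 14.1 in control, while RPL11 had a control peak of 5.24 over its start (chromosome 1, 23691562 to 23691981) and none in the clones. The nearest clone peaks to RPL11 were 56954 bp away in clone 1 and 104013 bp away in clone 2.

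The stalk proteins RPLP0, RPLP1 and RPLP2 recruit the elongation factors to the large subunit. RPLP0 had a peak in all 3 lists, with scores of 9.14 in clone 1, 9.11 in clone 2 and 9.95 in control. Within those lists these were the 87.0, 25.9 and 81.5 percentile. RPLP2 had a control peak of 6.65 and none in either clone. RPLP1 had none in any list. The 3 genes thus had 3 different patterns of calls, although each start carries a pyrimidine run of 9 to 13 bases.

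The large-subunit genes other than the stalk and the L1 paralogues had a peak at 33 of 43 in clone 1, 27 of 43 in clone 2 and 40 of 43 in control. The small-subunit genes had one at 24 of 31 in clone 1, 19 of 31 in clone 2 and 27 of 31 in control. Of the 3 L1 paralogues, which are related genes with lower or tissue-restricted use, RPL7L1 had its gene-end peaks in control only, the stronger beyond its 3′ end, next to the neighbour PEX39. RPL22L1 and RPL26L1 had none in any list. A peak within 1000 bp of an internal listed start of RPL26L1 was nevertheless in all 3 lists. The nearest peak to an annotated end of RPL26L1, which need not be that one, lay at 4939 bp in clone 1, 5073 bp in clone 2 and 1537 bp in control. The 19 Diamond-Blackfan genes had a peak at 16 in clone 1 (84.2%), 12 in clone 2 (63.2%) and 17 in control (89.5%). Of the 17 anaemia genes with a control peak, RPL11 and RPS26 had none in clone 1 (11.8%, against 21.1% of all genes). In clone 2, RPL11, RPL18, RPL27, RPS19 and RPS27 had none (29.4%, against 30.1% of all genes). Between the 2 subunits the intervals of the shares with a peak overlapped in every list.

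The comparison of clone 1 with control, both of batch 1, asked whether gene ends that were accessible in control cells lacked a peak without SMARCAL1. Of the 70 members with a control peak, 14 had none in clone 1 (20%, 11.4 to 31.3), and over all 12166 genes with a control peak the share was 21.1%. The share at the members is close to that background with all deposited peaks. With only peaks above the median score of their list it was 40.7% (22 of 54), against 31.2% of all genes. No interval was made for that share and the difference was not tested. The 14 were RPL11, RPL13, RPL23, RPL29, RPL38, RPL39, RPL7A, RPL7L1, RPLP2, RPS16, RPS2, RPS21, RPS26 and RPS3. With a single clone per list, the knockout and the clone cannot be told apart.

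Of these 14, RPS2 and RPS3 encode proteins at the mRNA entry of the small subunit. Their control scores were 7.53 and 5.80. RPL38, which in mice is needed for translation of a group of Hox mRNAs, had a clone 2 score of 9.61 and a control score of 5.63. RPL39, whose protein lines the exit tunnel, had 11.9 in clone 2 and 7.56 in control. RPS21 had 7.95 in clone 2 and 5.55 in control, and RPS26, an anaemia gene whose protein lies at the mRNA exit, 9.15 in clone 2 and 6.07 in control. Within the clone 2 list these scores were the 33.6 percentile at RPL38, 59.3 at RPL39, 11.9 at RPS21 and 28.0 at RPS26. Within the control list they were the 32.8, 67.7, 30.7 and 46.5 percentile at the same genes. These 4 genes had a clone 2 peak of 107 to 110 bp, against a median of 233 bp at the members, and none of these peaks covered the start.

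The comparison of clone 2 with control joins the 2 batches. Of the 70 members with a control peak, 23 had none in clone 2 (32.9%, 22.1 to 45.1), against a background of 30.1% of all genes. With each list reduced to its 34572 strongest peaks, 10 of 56 members had none in clone 1 (17.9%) and 13 of 56 none in clone 2 (23.2%), against 15.9% and 20% of all genes. The 23 included the 10 members also missing in clone 1 and, among those with a clone 1 peak, RPL10A, RPL14, RPL18, RPL23A, RPL27, RPL3, RPL32, RPL6, RPS15, RPS19 and RPS27. Batch and clone cannot be told apart in this comparison.

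RPS19, the gene most often mutated in Diamond-Blackfan anaemia, was among them. It had a clone 1 score of 5.25 and a control score of 7.14 (chromosome 19, 41859469 to 41860369), and its nearest clone 2 peak was 11269 bp away. RPL14 scored 6.03 in clone 1 and 8.39 in control, the highest control score among the 23. RPL18 scored 5.29 in clone 1 and 8.13 in control. RPL10A, which shares its peak with the Fanconi anaemia gene FANCE, scored 5.91 in clone 1 and 8.05 in control. None of the 23 had a control score above 8.39.

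In both clones a peak was missing at 10 of the 70 members (14.3%, 7.07 to 24.7), namely RPL11, RPL13, RPL23, RPL29, RPL7A, RPL7L1, RPLP2, RPS16, RPS2 and RPS3. Over all genes the share was 15.9%. Their control scores lay between 5.11 and 7.73, with a median of 6.38. The 43 members with a peak in both clones and control had control scores of 5.60 to 22.7, with a median of 9.99. Both comparisons use the same control list.

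Among the 10 members without a control peak, 2 had one in clone 1, against 5.93% of all genes, and none had one in clone 2, against 1.55%. They were RPS9, with a score of 7.30 and a width of 256 bp, and RPS10, with 5.21 and 914 bp. RPS10 encodes a protein at the mRNA entry that is ubiquitinated on collided ribosomes. The nearest control peaks to these genes lay 9503 and 19521 bp away. The members with no peak in any list included RPL19, RPL22L1, RPL24, RPL26L1, RPL36, RPLP1 and RPS18. RPS18 lies in the HLA region and RPS9 beside the leukocyte receptor cluster, for both of which hg38 carries alternative contigs. The lists held 711, 338 and 1123 peaks on alternative contigs in clone 1, clone 2 and control, so reads of these genes may have been placed there; this was not tested.

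The absences followed the strength of the control peak. All 29 members whose control peak lay at or above the 75 percentile of the control scores had a peak in clone 1 and in clone 2 (0 of 29 absent, interval 0 to 11.9%). Over all 6686 genes of that range, 2.75% lacked a clone 1 peak and 6.36% a clone 2 peak. Among the 25 members between the 50 and the 75 percentile, 6 lacked a clone 1 peak (24%) and 12 a clone 2 peak (48%). Over all genes of that range the shares were 28.7% and 43.7%. Among the 16 members below the median, 8 had none in clone 1 (50%) and 11 none in clone 2 (68.8%), against 62.8% and 79.5% of all genes of that range. In each range the interval of the members held the share of all genes.

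**Figure D2:**
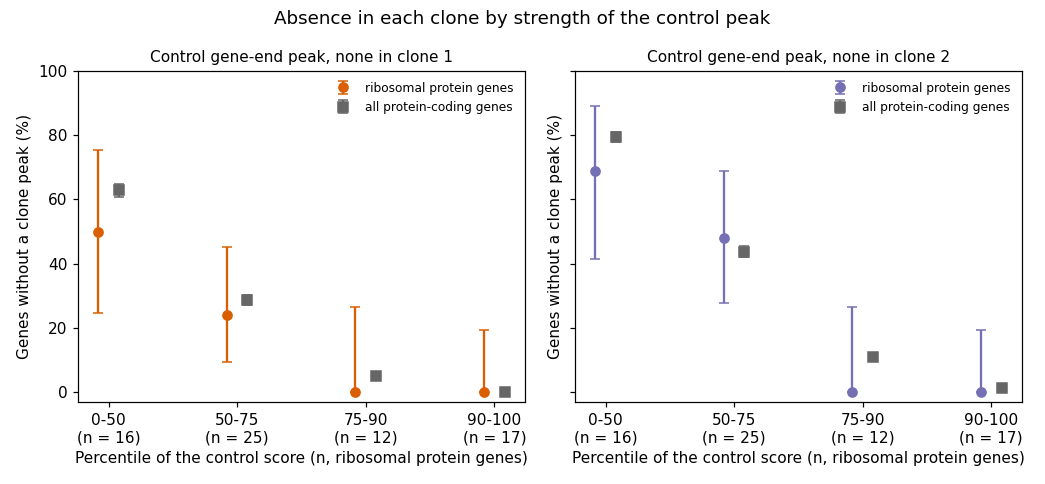
Share of genes with a control gene-end peak and none in clone 1 (left) or clone 2 (right), by percentile of the control score, for ribosomal protein genes (circles) and all protein-coding genes (squares); bars are exact 95% binomial intervals. Both sets of points come down from left to right, and no ribosomal protein gene above the 75 percentile lacked a clone peak.

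The members are spread over 21 chromosomes, with 12 on chromosome 19, 6 on chromosome 17 and 1 on chromosome 22, the gene-rich chromosomes on which clone 2 lacked relatively many control peaks. On these 3 chromosomes 3 of 16 members with a control peak had none in clone 1 (18.8%, 4.05 to 45.6) and 9 of 16 had none in clone 2 (56.2%, 29.9 to 80.2). On the other chromosomes the counts were 11 of 54 in clone 1 (20.4%, 10.6 to 33.5) and 14 of 54 in clone 2 (25.9%, 15.0 to 39.7). Over all genes the shares absent in clone 1 were 36.9% on the 3 chromosomes and 18.7% elsewhere. Those absent in clone 2 were 56.2% and 26.2%. The clone 2 shares of the members were thus close to those of all genes in both chromosome groups, and 9 of the 23 members absent in clone 2 lay on chromosomes 17, 19 and 22.

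**Figure D3:**
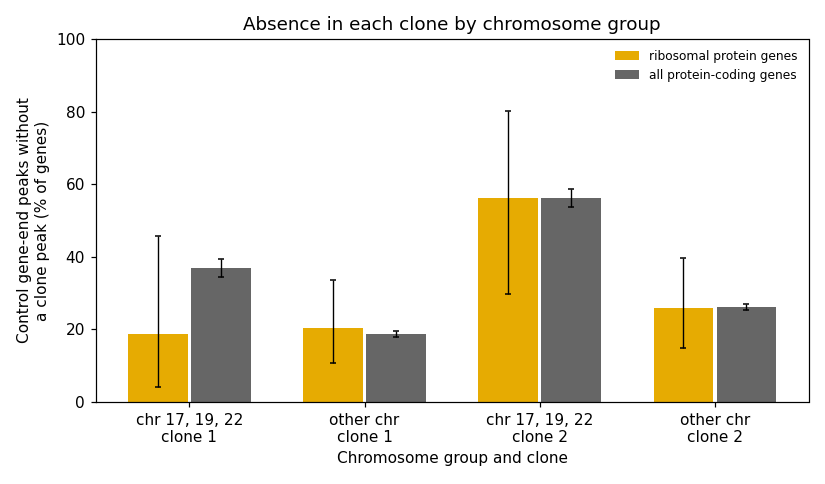
Share of genes with a control gene-end peak and no peak in clone 1 (left pair) or clone 2 (right pair), on chromosomes 17, 19 and 22 and on the other chromosomes, for ribosomal protein genes and all protein-coding genes; bars are exact 95% binomial intervals. In clone 2 both kinds of gene stand at 56.2% on chromosomes 17, 19 and 22.

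The position of the peaks could be measured at the 65 members with a start in the RefSeq promoter table; where several starts are listed, the nearest was used. Within 1000 bp of a listed start, 45 of 65 members had a peak in clone 1, 37 in clone 2 and 56 in control (69.2%, 56.9% and 86.2%), against 53.9%, 47.5% and 64.2% of all genes with an entry. The strongest gene-end peak covered the start base at 38 of 46 members in clone 1 (82.6%), 20 of 38 in clone 2 (52.6%) and 50 of 56 in control (89.3%). Over all genes these shares were 81.9%, 63.3% and 82.7%. The peak centre lay before the start, on the upstream side, at 33 of 46 members in clone 1, 34 of 38 in clone 2 and 41 of 56 in control. Over all genes it lay upstream at 54.7%, 73.6% and 50.2% in the same lists.

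The median offset of the centre from the start, negative on the upstream side, was -61.8 bp in clone 1, -103 bp in clone 2 and -59.5 bp in control. Over all genes the median offsets were -23.5, -73.5 and -1.5 bp. In clone 2 the quartiles of the members' offsets were -131 and -64.4 bp. At RPS12 the clone 2 peak ran from position -365 to -5 relative to the start and so ended just short of the pyrimidine run shown above, while at RPS6 it ran from -312 to 72. At every one of the 43 members with a peak in all lists the strongest clone 2 peak was narrower than the strongest clone 1 and control peaks. The clone 2 list was narrow as a whole, with a median width of 200 bp, against 453 bp in clone 1 and 399 bp in control. The same count was not made over all genes. At some members, such as RPL17, RPL26 and RPL27A, the strongest peaks of the lists lay at different ends of the gene.

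**Figure D4:**
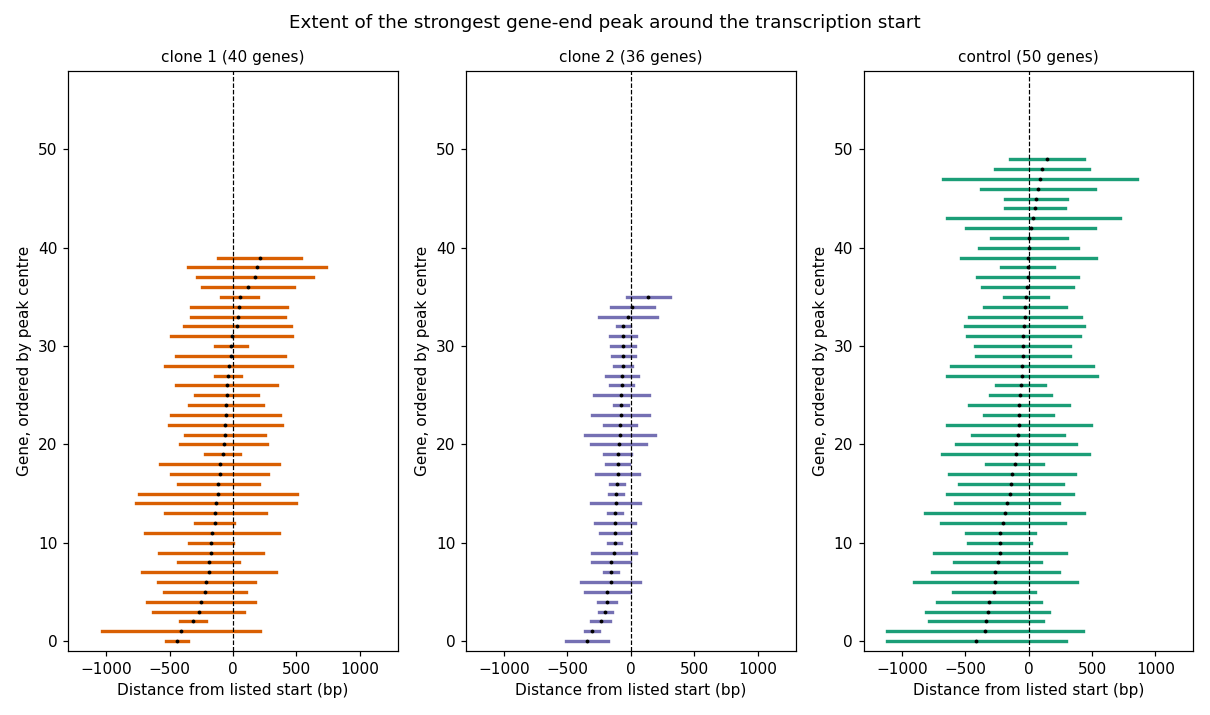
Extent of the strongest gene-end peak around the nearest listed start (dashed line) at ribosomal protein genes with that peak centred within 1000 bp, in clone 1 (40 genes), clone 2 (36) and control (50); lines are peaks, points their centres, and genes are ordered by centre within each panel. Most centres lie to the left of the start, and the clone 2 peaks are short and often end before it.

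An annotated gene end was itself covered by a peak at 54 of 58 members in clone 1, 26 of 47 in clone 2 and 70 of 70 in control. Among members counted as having a peak, the nearest one was at most 355 bp from the gene end in clone 1 (RPL28) and 267 bp in clone 2 (RPS27A), and the nearest peaks of members not counted were at 2451 bp (RPL38 in clone 1), 3845 bp (RPL14 in clone 2) and 1537 bp (RPL26L1 in control). Of the 70 strongest control peaks, 56 were overlapped by a clone 1 peak, over a median of 78.5% of the length of those 56, and 47 by a clone 2 peak, over a median of 25.7% of those 47. The control peaks without overlap numbered 14 and 23, as many as the members counted as absent. At RPSA the clone 2 peak covered 61.0% of the control peak, the most of any member. These counts and medians were not made over all genes, so they are not read as results about the members. The whole clone 2 list had a median width of 200 bp, against 399 bp in control.

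Some ribosomal protein genes share an accessible end with a neighbour. The strongest peak also lay in the end window of another protein-coding gene at 22 of 58 members in clone 1 (37.9%), 14 of 47 in clone 2 (29.8%) and 22 of 70 in control (31.4%). Over all genes these shares were 29.4%, 28.3% and 28.6%. The counts include joint genes that take in the member itself. These were the only other gene at RPS10 in clone 1 (RPS10-NUDT3) and at RPL17 in clone 2 (RPL17-C18orf32). The strongest shared control peaks were those of RPS27A with CLHC1, RPL7 with RDH10 and RPL17 with C18orf32, at scores of 17.4, 16.9 and 15.5. The strongest RPL17 peak of control was centred 5269 bp past its start, beyond its 3′ end. Of the 22 members with a shared control peak, 3 had none in clone 1 and 8 none in clone 2. Of the 48 with an unshared one, 11 had none in clone 1 and 15 none in clone 2. The members' shares were 13.6% and 36.4% for shared peaks and 22.9% and 31.25% for unshared ones, in clone 1 and clone 2. Over all genes they were 16.4% and 27.8% for shared peaks and 22.9% and 31.05% for unshared ones.

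The order of the members was similar in the 3 lists. Across the 43 members with a peak in all lists, Spearman's rho of the scores was 0.68 between clone 1 and control, 0.77 between clone 2 and control and 0.61 between clone 1 and clone 2. Across the 7877 genes of that kind the values were 0.78, 0.76 and 0.69. These are correlations across genes, which are not replicates, and the lists share sequence content and mappability. The widths were less alike, with rho of 0.45, 0.20 and 0.20 for the same pairs of lists at the members. Over all genes the rho of the widths was 0.66, 0.33 and 0.43, also below that of the scores.

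A pyrimidine start was more frequent among the members than among all genes, though not present in each. The first listed start was a C in 47 of 65 members (72.3%), against 11.3% of 15812 protein-coding genes with an entry. A C followed by at least 4 more pyrimidines was found in 43 of 65 members (66.2%) and in 4.604% of all genes. When any listed start was allowed, 47 of 65 members had such a run. The run was present at 24 of 34 members with a peak in all lists, at 12 of 22 with a control peak that a clone lacked, and at 7 of 9 without a control peak. It therefore occurred among genes with and without a called peak.

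Motifs were searched as fixed letters on both strands of the 300 bases from 250 before to 50 after the first listed start. The ETS motif CCGGAAG, bound by factors such as GABP, was in 22 of 65 members (33.8%) and 14.2% of all promoters. The palindromic core TCGCGAG was in 12 of 65 members (18.5%) and 3.25% of all promoters. The YY1 motif AAGATGG was in 9 members (13.8%) and 6.40% of all promoters, and the TATA box TATAAA in 6 (9.23%) and 9.64%. GGGCGG, the SP and KLF motif, was in 34 members (52.3%) and 58.5% of all promoters, and CCAAT, the NF-Y motif, in 21 (32.3%) and 36.3%. The pyrimidine cores CTTTC and CTTCC, which can lie in the tract itself, were in 75.4% and 92.3% of the members and in 52.0% and 74.1% of all promoters. The NRF1 core GCGCATG was in 9.23% of the members and 5.87% of all promoters, and the E-box CACGTG in 6.15% and 8.87%.

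The ETS motif was in 11 of 34 members with a peak in all lists, in 8 of 22 with a control peak that a clone lacked and in 3 of 9 without a control peak. TCGCGAG was in 7 of 34, 4 of 22 and 1 of 9 of the same groups. Over all promoters the ETS motif was in 18.9% of those with a control peak and 6.02% of those without, and TCGCGAG in 4.52% and 1.07%. The median GC content of the window was 59.3% in the members, 62.7% in all genes with an entry and 65.3% in all genes with a control peak. A match is a description of the sequence and not a measured binding site.

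The same counts were made for gene lists near the ribosome in function. The 77 mitochondrial ribosomal protein genes had a peak at 66.2% in clone 1, 63.6% in clone 2 and 87.0% in control, and the 48 proteasome subunit genes at 72.9%, 66.7% and 75%. Of the mitochondrial ribosomal protein genes with a control peak, 17 of 67 had none in clone 1 (25.4%) and 20 of 67 none in clone 2 (29.9%). Of the proteasome genes with one, 3 of 36 had none in clone 1 (8.33%, 1.75 to 22.5) and 4 of 36 none in clone 2 (11.1%, 3.11 to 26.1). The differences between the lists of genes were not tested.

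**Figure D5:**
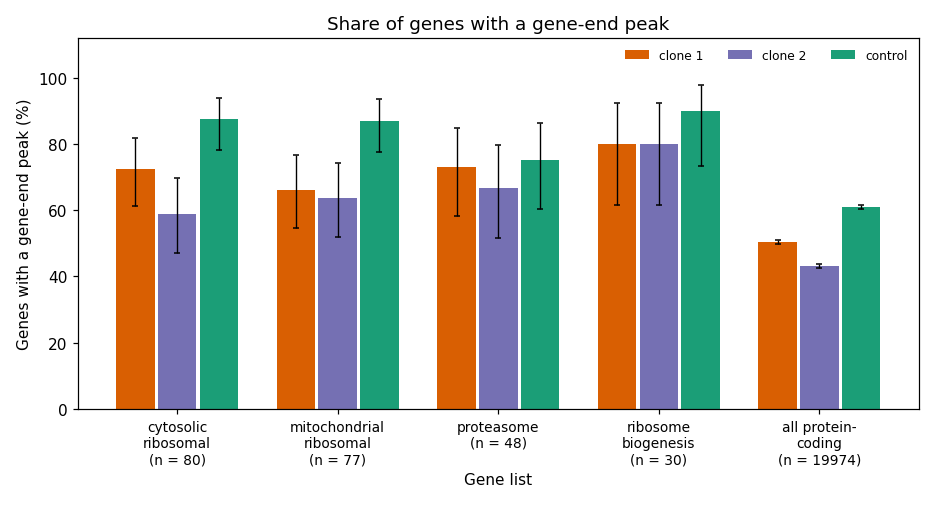
Share of genes with a gene-end peak in clone 1, clone 2 and control for the cytosolic ribosomal protein genes, 3 other gene lists and all protein-coding genes; bars start at 0 and carry exact 95% binomial intervals. The cytosolic ribosomal protein genes stand at 72.5%, 58.8% and 87.5%, and all genes at 50.4%, 43.2% and 60.9%.

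The 30 ribosome biogenesis genes had a peak at 24 in clone 1, 24 in clone 2 and 27 in control. NPM1, a nucleolar chaperone, scored 12.8 in clone 1, 21.8 in clone 2 and 15.9 in control. Of the 27 with a control peak, 3 had none in clone 1 (11.1%), 3 had none in clone 2 (11.1%) and 0 had none in both (interval 0 to 12.8%), against 15.9% of all genes in both. The 18 translation factors and other genes with pyrimidine-tract transcripts had a peak at 13 in clone 1, 11 in clone 2 and 15 in control. EEF1A1, the elongation factor that delivers aminoacyl-tRNA, scored 9.47, 15.9 and 20.5. FAU, which encodes a small-subunit protein fused to a ubiquitin-like protein, had a control peak of 8.79 and none in either clone, while RACK1, a scaffold on the small subunit, had none in any list.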

How the data were processed

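ATAC-seq peaks of MDA-MB-436 cells were used, 1 merged list for each group. The authors deposited each list without a header, with a chromosome, start, end and score per peak; per the labels, the replicates had been merged. The build was hg38 and the tools named are MACS2, HISAT2 and ChIPseeker, per the submitters' processing notes; their versions were not given in the sources used here. From its values, the deposited score was taken to be −log10 p by the authors. The score has extra digits, as a mean of merged peaks would, in 32.5% of clone 1, 33.2% of clone 2 and 40.4% of control peaks. They were counted by significant digits in clone 2 and by decimals in clone 1 and control, so the shares are not of the same measure. How the extra digits arose is not known. Coordinates were converted to counting from 1.

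Genes came from a RefSeq table (GRCh38.p14) that lists no strand; starts and strands came from its promoter table, which had an entry for 65 of the 80 members. Presence, overlap of at least 1 bp and percentiles were computed with Python 3.11.15, pandas 2.3.3 and scipy 1.17.1. On simulated peaks placed at 200 of 400 genes, the gene-end rule returned those 200 and no other.

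With 1 list a group no p-value is given. Named genes, apart from a few not reported here, were members missing in a list, the 5 highest and 5 lowest control scores, the 3 widest and 3 narrowest control peaks, 12 genes fixed by role, and the 3 strongest shared peaks. The members, lists and tests were chosen with earlier results of these data known. Alternatives changed the distance, ends, score limit, list length, overlap, paralogues and shared windows.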

Additional observations from a re-analysis of the deposited data

How the results depend on the processing

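No paired analysis was possible because each group is 1 merged list, and for the same reason no replicate could be left out. Of 76 values recomputed for 10 results, 65 kept within 1.5 times the main count, or within the interval of the median, and 11 did not. With only peaks above the median score of their list, members with a peak numbered 35 in clone 1 and 27 in clone 2. These were 43.8% and 33.8%, against 35.9% and 25.2% of all genes. Of 54 with a control peak, 22 lacked one in clone 1 (40.7%, against 31.2% of all genes) and 27 in clone 2 (50%, against 49.4%). In both clones 16 lacked a peak, and no interval was made for any of these shares. The median percentiles were 80.8 in clone 1 and 69.8 in clone 2. Their rise was fixed in advance, because percentiles still came from the whole lists and the lower peaks were left out. With lists of equal length, 13 members lacked a clone 2 peak and 9 of 24 without a control peak had one in a clone, against 2 of 10. Without shared windows 37 members had a clone 1 peak. When a clone peak had to cover 50% of the control peak, 64 of 70 members lacked one in clone 2 and 18 in both clones. The median peak width at the members was 233 bp in clone 2 and 826 bp in control, and over the whole lists 200 and 399 bp. Under these settings, counts for both clones, for members without a control peak, without shared windows and for 50% cover were not made over all genes. They are therefore not read as results about the members. The cause of the shifts was not tested. Distances of 500 and 3000 bp, listed starts only, dropping the L1 paralogues and counting any overlapping clone peak moved none of the counts by over 1.5 times. Peak calls of unknown depth limit every count of absent peaks.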
